A study of Homo sapiens with 18 samples.

Results

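DHRS9 and 9 other genes of retinoid metabolism and retinoid signalling were followed in 18 RNA-seq libraries of 3 human acute myeloid leukaemia cell lines. The 10 genes were taken by name: the enzymes DHRS9, DHRS3, RDH10, RDH11, ALDH1A1, ALDH1A2 and CYP26A1, and the receptors RARA, RARG and RXRA. All 10 were matched by gene ID among the 40184 IDs of the deposited table. The set was chosen by the measured DHRS9 levels, which were higher with treatment in SKNO-1 and lower in Molm-14, so those changes are described here without a test. Molm-14 and MV4-11 carry FLT3-ITD, an activating internal tandem duplication of the receptor FLT3, and SKNO-1 carries KIT N822K, a substitution in the receptor KIT. Each line received DMSO, the vehicle, or 500 nM RMC-4550 for 24 h, with 3 biological replicates in each of the 6 groups. RMC-4550 is an allosteric inhibitor of SHP2, the phosphatase that relays receptor signals to RAS. Only the SKNO-1 medium held human GM-CSF, at 10 ng/mL, so line, genotype and growth factor cannot be told apart. The labels call the replicates biological without saying whether they were separate cultures, so p-values measure the spread between these samples. The RNA came from whole cultures, in which fewer cells expressing a gene and less of its RNA per cell cannot be told apart.

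Retinoids derive from vitamin A. Dehydrogenases of the short-chain family oxidise retinol to retinal, other members reduce retinal back to retinol, and aldehyde dehydrogenases of the ALDH1A family oxidise retinal to retinoic acid, which CYP26 enzymes clear. Retinoic acid binds RAR receptors, which pair with RXR receptors on DNA at repeated half-sites and exchange corepressors for coactivators. In myeloid cells this pathway promotes granulocytic maturation, and RARA is fused to PML in acute promyelocytic leukaemia.

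Libraries held between 17434810 and 19959917 reads. Levels are given in CPM, the reads of a gene brought to a common library size. The share of reads from mitochondrial genes was 5.07% to 7.02% in 14 libraries. It was 10.5% to 15.0% in the other 4, which were Molm-14 with RMC-4550 replicate 2, MV4-11 with DMSO replicates 1 and 3, and MV4-11 with RMC-4550 replicate 1. Summed myeloid markers (CD33, SPI1, MPO, LYZ, CSF1R and CD14, with CD14 under 1 CPM throughout) were present in every group. They ran from 383 to 390 CPM with DMSO and 497 to 536 CPM with RMC-4550 in Molm-14, from 605 to 695 and 675 to 740 CPM in MV4-11, and from 1024 to 1085 and 1230 to 1359 CPM in SKNO-1. The sums overlapped in MV4-11, and the markers did not all move together. In Molm-14, CSF1R was 10.2 to 14.7 CPM with DMSO and 55.2 to 78.1 CPM with RMC-4550. CD33 there was 45.3 to 47.6 CPM with DMSO and lower with RMC-4550, at 34.5 to 44.2 CPM. The part of these marker differences in the results below was not tested. The 3 T cell markers and the 3 epithelial markers were under 1 CPM in all libraries. RUNX1T1, the partner in the SKNO-1 fusion, ranged from 13.2 to 14.4 CPM in vehicle SKNO-1 libraries, and no library of the other lines held more than 1 read. The vehicle libraries of Molm-14 had 9261 genes at 10 CPM or more, and 69 of these fell short of 1% of that level in SKNO-1, against 0 in MV4-11. For the 9416 such genes of MV4-11, the number short of 1% in Molm-14 was 61.

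The upstream sequences of the genes were searched for the kind of DNA element that RAR and RXR pairs are known to bind. The elements were direct repeats of a half-site, spelled AGGTCA or AGTTCA or GGGTCA or GGTTCA, with spacers of 1, 2 or 5 bases, on both strands. The windows were the 250 bases before each RefSeq transcript start (GRCh38.p14). CYP26A1 was the 1 gene with such a repeat, out of the 10 of 11 searched genes that had a window (the 10 genes above, without RDH10, which had none, and CYP26B1). Its element is a repeat with a spacer of 5 bases at chr10:93073803-93073819, on the strand opposite to the gene, 90 bases before the downstream of its 2 RefSeq starts. The window of that start lies inside the annotated gene, which begins at position 93073475, and 195 of its 250 bases are in annotated exons. The half-sites are in capitals.
CYP26A1 element: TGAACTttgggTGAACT
Among all 35116 windows, 0.074% held a repeat with this spacer, 0.0968% one with a spacer of 1 base and 0.0313% one with a spacer of 2 bases. Single half-sites were common, with at least 1 in 33.8% of windows. DHRS9 had 4 windows with 1 half-site in all and no repeat. The exon-free stretches (GENCODE 29) at 2 of its starts, on the plus strand, and 1 RARA window are shown with half-sites in capitals, for comparison with the CYP26A1 element. DHRS9 is the gene the set is built around, and RARA had the largest called change among the other 6 genes tested.
DHRS9, chr2:169066827-169067034: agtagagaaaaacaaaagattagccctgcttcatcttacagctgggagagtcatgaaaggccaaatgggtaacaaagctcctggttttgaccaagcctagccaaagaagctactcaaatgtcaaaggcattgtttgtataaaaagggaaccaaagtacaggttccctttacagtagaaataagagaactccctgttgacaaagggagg
DHRS9, chr2:169080857-169081050: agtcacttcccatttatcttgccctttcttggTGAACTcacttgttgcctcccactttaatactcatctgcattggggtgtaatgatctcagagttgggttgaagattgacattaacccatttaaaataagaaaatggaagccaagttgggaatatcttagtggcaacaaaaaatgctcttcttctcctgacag
RARA, chr17:40308930-40309179: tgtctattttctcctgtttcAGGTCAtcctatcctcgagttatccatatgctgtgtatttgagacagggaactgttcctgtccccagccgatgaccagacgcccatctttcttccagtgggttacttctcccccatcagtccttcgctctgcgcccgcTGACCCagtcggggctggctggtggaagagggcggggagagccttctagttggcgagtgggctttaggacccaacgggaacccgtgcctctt
The first DHRS9 stretch held no half-site and the second held 1. The RARA stretch held 2, too far apart to form a listed repeat. A match in letters is a description of the sequence and not evidence of binding.

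DHRS9 (ENSG00000073737, chr2:169064789-169096167, plus strand) encodes a short-chain dehydrogenase that can oxidise retinol and some steroids, and it is also known as a marker of regulatory macrophages. In Molm-14 its level was 47.7, 40.4 and 46.1 CPM with DMSO and 20.1, 16.7 and 22.1 CPM with RMC-4550. Every treated library lay below every vehicle library, and the mean was 2.28-fold lower, a log2 change of -1.19. In SKNO-1 it was 0.692, 0.459 and 1.37 CPM with DMSO, from 15, 10 and 29 reads, and 5.09, 5.34 and 4.60 CPM with RMC-4550, from 110, 115 and 100 reads. There every treated library lay above every vehicle library, and the mean was 5.97-fold higher, a log2 change of 2.68. The SKNO-1 value rests on a low vehicle level: on log2(CPM + 1) it was 1.74, and with each library left out in turn it ran from 2.33 to 3.10. DHRS9 passed the minimum of 1 CPM in 3 SKNO-1 libraries through the treated group. Treated and vehicle libraries lay fully apart, in either direction, for 59.9% of all genes tested in Molm-14 and 62.0% in SKNO-1.

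MV4-11 gave the measurement of DHRS9 that its choice did not use. Its level was 23.9, 30.0 and 22.5 CPM with DMSO and 17.3, 17.9 and 17.8 CPM with RMC-4550. The treated libraries all lay below the vehicle libraries, and the mean was 1.44-fold lower. Such separation, in either direction, was seen for 24.6% of all genes tested in MV4-11. The log2 change was -0.52 (SE 0.26, 95% interval -1.06 to 0.03), and its adjusted p from limma's test with Benjamini-Hochberg adjustment was 0.22. The call changed with the setting: the adjusted p was 0.04 on log2(CPM + 1) and 0.038 with the mitochondrial share added to the model. It was 0.02 with voom weights, a setting added after seeing the data. The change was not called under the other settings, nor with any 1 library left out (log2 change -0.6 to -0.39).

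With DMSO, DHRS9 followed the order Molm-14, MV4-11, SKNO-1, at 44.7 ± 3.81, 25.5 ± 3.96 and 0.839 ± 0.471 CPM (mean ± SD, n = 3 each). No libraries of neighbouring lines overlapped. The Molm-14 mean was 1.76 times that of MV4-11 and 53.3 times that of SKNO-1. With RMC-4550 the means were 19.6 ± 2.70, 17.7 ± 0.349 and 5.01 ± 0.376 CPM, and the Molm-14 and MV4-11 libraries overlapped. The response of SKNO-1 exceeded that of Molm-14 by 3.88 on the log2 scale, which ranked 1 of the 12905 genes tested for that difference. Of those genes, 65 (0.504%) were called lower in Molm-14 and higher in SKNO-1. These ranks restate what chose the gene and were not read as evidence.

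**Figure D1:**
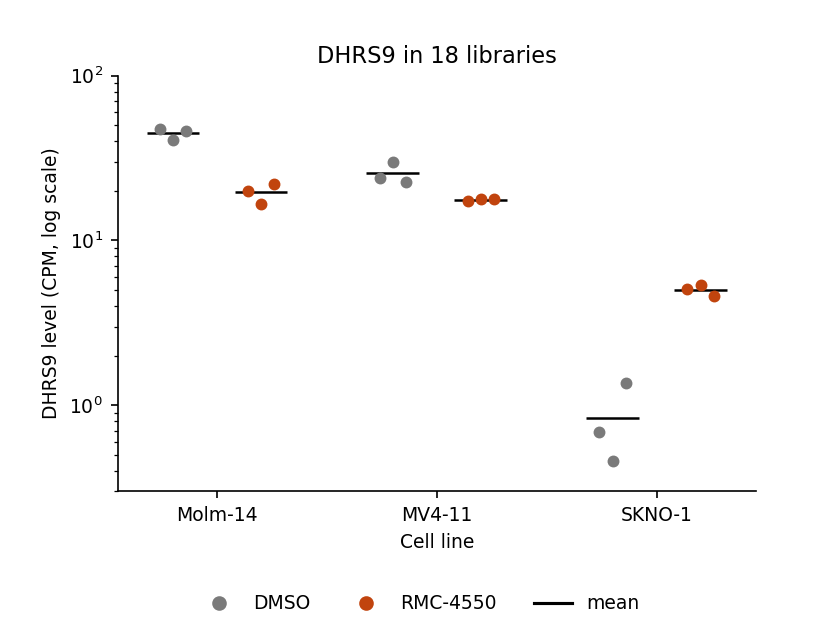
DHRS9 level in CPM on a log axis for each library, by line, with DMSO in grey, RMC-4550 in orange and a bar at each mean of 3. Treated libraries lie below the vehicle libraries in Molm-14 and MV4-11 and above them in SKNO-1, where vehicle values are 0.459 to 1.37 CPM.

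The genes whose levels most resembled DHRS9 were sought by Pearson correlation of log2 values over the 18 samples among 11027 genes with a mean of at least 5 CPM. The samples form separate lines, so these coefficients mostly describe differences between lines and carry no test. The 5 highest were PAX5 (r = 0.962), OTULINL (0.956), KCNG1 (0.951), PARP12 (0.947) and TRIM72 (0.942). PAX5, a B-lineage transcription factor, was also lower with treatment in Molm-14 (15.8 ± 1.09 to 6.78 ± 1.91 CPM) and higher in SKNO-1 (0.525 ± 0.189 to 1.96 ± 0.483 CPM). In MV4-11, where treated DHRS9 was lower, PAX5 was 8.10 ± 2.91 CPM with DMSO and 9.40 ± 0.967 CPM with RMC-4550. The log2 change of PARP12 was 0.01 for Molm-14, 0.67 for MV4-11 and 1.72 for SKNO-1, so likeness over the samples did not mean the same response. KCNG1, a potassium channel subunit, was 22.2 ± 1.44 and 10.5 ± 0.576 CPM in Molm-14 and 1.58 ± 0.0469 and 2.53 ± 0.249 CPM in SKNO-1, again in opposite directions. DHRS3 lay near the other end, with r = -0.86, and its level was highest in SKNO-1.

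Of the 10 genes, 7 entered the fit by reaching 1 CPM in at least 3 samples, and ALDH1A1, ALDH1A2 and CYP26A1 did not. The 6 that entered besides DHRS9 were tested in each line within a fit of 16289 genes. In Molm-14, RARA and RARG rose and RDH10 and RDH11 fell, so 4 of 6 changed where 46.6% of all genes tested were called. In MV4-11, RARG rose and RDH11 fell, 2 of 6 against 13.9% of all genes. In SKNO-1 RDH10 fell, 1 of 6 against 27.0%. Their median log2 change was 0.22, 0.17 and -0.13 for the lines in that order, where the median over all genes tested was -0.06, -0.01 and -0.05. With so few genes these counts lie close enough to the background that nothing is read from them beyond the single genes.

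The responses of the same 6 genes were also compared between lines. Between SKNO-1 and Molm-14, 1 difference was called higher and 2 lower, against 4.13% and 6.74% of all genes. Between Molm-14 and MV4-11, 2 were called higher and 0 lower, against 10.3% and 9.11%. Between SKNO-1 and MV4-11 limma called 0 of 6, voom weights also called 0, and 1 passed at an unadjusted p under 0.05, where 1.65% of all genes were called (0.482% higher, 1.17% lower).

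RDH10 oxidises retinol to retinal and is the main enzyme of that step in embryos. Its level in Molm-14 was 17.0, 17.6 and 17.1 CPM with DMSO and 13.9, 12.1 and 11.8 CPM with RMC-4550, without overlap. It fell by 0.45 on the log2 scale (SE 0.13, adjusted p = 0.009). SKNO-1 libraries held 7.70, 7.11 and 8.62 CPM with DMSO and 5.14, 4.87 and 5.06 CPM with RMC-4550, and RDH10 fell by 0.63 on the log2 scale (SE 0.13, adjusted p = 0.0015). The MV4-11 libraries overlapped, at 9.15, 11.8 and 12.9 CPM against 10.2, 9.87 and 8.78 CPM, with a log2 change of -0.22 (95% interval -0.49 to 0.05, adjusted p = 0.31). The 3 responses did not differ from each other past the threshold, with adjusted p of 0.35 to 0.57. RDH10-AS1 overlaps RDH10 on the opposite strand by 278 exon bases, and the strand used in counting is not given in the sources used here.

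RDH11 reduces retinal and other aldehydes in many tissues. In Molm-14 its level was 36.2, 36.4 and 37.4 CPM with DMSO and 15.2, 22.9 and 16.6 CPM with RMC-4550. It fell by 1.03 on the log2 scale (SE 0.16, adjusted p = 7.8e-05), without overlap. MV4-11 values were 38.2, 28.5 and 40.7 CPM against 29.3, 21.5 and 21.4 CPM, and RDH11 fell by 0.57 on the log2 scale (SE 0.16, adjusted p = 0.024). There the highest treated library overlapped the lowest vehicle library, and within each group the libraries with a mitochondrial share over 10% held the higher RDH11 levels. The call was kept with the mitochondrial share added to the model. Whether that share caused part of the RDH11 change was not tested. The call was lost without DMSO replicate 1, DMSO replicate 3, RMC-4550 replicate 2 or RMC-4550 replicate 3 (adjusted p of 0.088 to 0.11) and in a fit of MV4-11 alone (0.16).

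SKNO-1 showed the smallest RDH11 change, from 33.5, 32.3 and 35.3 CPM to 29.1, 26.6 and 28.5 CPM. The groups did not overlap, as for 62.0% of all genes tested in SKNO-1. The log2 change was -0.26 (95% interval -0.60 to 0.07, adjusted p = 0.24). It was called in a fit of SKNO-1 alone (adjusted p = 0.0043). The difference between the SKNO-1 and Molm-14 responses was 0.77 (adjusted p = 0.037) where 10.9% of all genes were called for that difference. This call was lost in 11 of the 12 fits that left out 1 library, each of the 6 of either line except Molm-14 with RMC-4550 replicate 2.

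DHRS3 reduces retinal to retinol and limits retinoic acid formation, and its gene is known to be induced by retinoic acid. Its level in Molm-14 lay between 19.9 and 20.2 CPM with DMSO and was 16.7, 21.7 and 19.5 CPM with RMC-4550. In SKNO-1 it was 46.5, 51.4 and 54.3 CPM against 46.9, 46.7 and 49.4 CPM. The groups overlapped in every line, MV4-11 included (19.9 to 29.1 CPM against 21.5 to 29.9 CPM). In the order Molm-14, MV4-11, SKNO-1 the log2 changes were -0.06, 0.02 and -0.09, with 95% intervals of -0.37 to 0.25, -0.29 to 0.33 and -0.40 to 0.22. No line's change passed the test (adjusted p of 0.75, 0.96 and 0.71), but with the mitochondrial share in the model the Molm-14 change was called at -0.22 (adjusted p = 0.042).

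The vehicle level of DHRS3 ran in the opposite order to that of DHRS9. SKNO-1 held 50.7 ± 3.95 CPM, MV4-11 25.9 ± 5.21 and Molm-14 20.02 ± 0.136 CPM (SD, n = 3). SKNO-1 lay above Molm-14 by 1.34 on the log2 scale (adjusted p = 5.8e-07) and above MV4-11 by 0.99 (adjusted p = 5.9e-05). Molm-14 and MV4-11 overlapped and did not differ past the threshold (adjusted p = 0.054). Vehicle RDH10 ordered the lines as DHRS9 did, with Molm-14 above MV4-11 by 0.62 (adjusted p = 0.00074) and SKNO-1 below MV4-11 by 0.52 (log2 difference -0.52, adjusted p = 0.0043). RDH11 did not differ between any pair of lines (adjusted p of 0.51 to 0.80). RARG was highest in SKNO-1, above Molm-14 by 0.52 (adjusted p = 0.0002) and above MV4-11 by 0.30 (adjusted p = 0.022), the latter lost without MV4-11 replicate 1 or 3 or SKNO-1 replicate 2 or 3 of the vehicle groups (0.05 to 0.082). RXRA was lower in SKNO-1 than in Molm-14 (log2 difference -0.66, adjusted p = 0.018), which was lost without Molm-14 replicate 3 (0.057). Of the 6 genes besides DHRS9, 1 was called higher and 1 lower in Molm-14 than in MV4-11, where 53.3% of all genes differed (27.4% higher, 25.9% lower). In SKNO-1 against Molm-14, 3 were higher and 2 lower, where 64.7% of all genes differed (32.3% higher, 32.4% lower). In SKNO-1 against MV4-11, 2 were higher and 1 lower, where 41.1% differed (19.2% higher, 21.9% lower).

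ALDH1A1 and ALDH1A2, which make retinoic acid from retinal, were near the limit of detection in most libraries. ALDH1A1 had 0 reads in 16 of the 18 libraries, 5 reads in Molm-14 with RMC-4550 replicate 2 and 1 read in an MV4-11 library with RMC-4550. A count of 0 allows a level of up to 0.138 to 0.192 CPM, which is 3 reads, depending on the library. ALDH1A2 was 0.5001, 0.288 and 0.390 CPM with DMSO in Molm-14 and 0.656, 1.02 and 1.24 CPM with RMC-4550, from 5 to 22 reads, without overlap. It was 0.1197 to 0.205 CPM in MV4-11 with DMSO, 0.101 to 0.106 CPM in MV4-11 with RMC-4550, and 0 reads in SKNO-1 with DMSO. These levels were too low to enter the test, and exons of ALDH1A2 overlap AQP9 on the opposite strand by 354 bases.

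CYP26A1 hydroxylates retinoic acid and is the classic target of the pathway, with the repeat shown above before its downstream start. It had 0 to 8 reads per library, at most 0.368 CPM, in all 18 libraries. Its relative CYP26B1, which was singled out after its values were seen, was expressed in both FLT3-ITD lines. CYP26B1 was 3.00, 3.40 and 3.23 CPM in Molm-14 with DMSO, from 54 to 59 reads, and 0.219, 0.0641 and 0 CPM with RMC-4550, from 4, 1 and 0 reads. MV4-11 held 5.596, 5.88 and 3.47 CPM with DMSO and 0.792, 0.607 and 0.660 CPM with RMC-4550, which were 12 to 15 reads. In SKNO-1 it had 0 to 2 reads in every library.

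CYP26B1 fell in both FLT3-ITD lines, with a log2 change of -5.21 in Molm-14 (SE 0.69, adjusted p = 2e-05) and -2.79 in MV4-11 (SE 0.69, adjusted p = 0.012). The Molm-14 value depends on the 0.5 reads added before the logarithm and is not a bound. The 2 responses did not differ past the threshold (log2 difference -2.42, adjusted p = 0.087). CYP26B1 passed the minimum level in both lines through the vehicle group, where it was high. It was also singled out after its values were seen, so these p-values describe the fall and are not read as evidence. Leaving out any 1 library moved the change between -5.96 and -4.40 in Molm-14 and between -3.03 and -2.65 in MV4-11, and kept both calls.

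**Figure D2:**
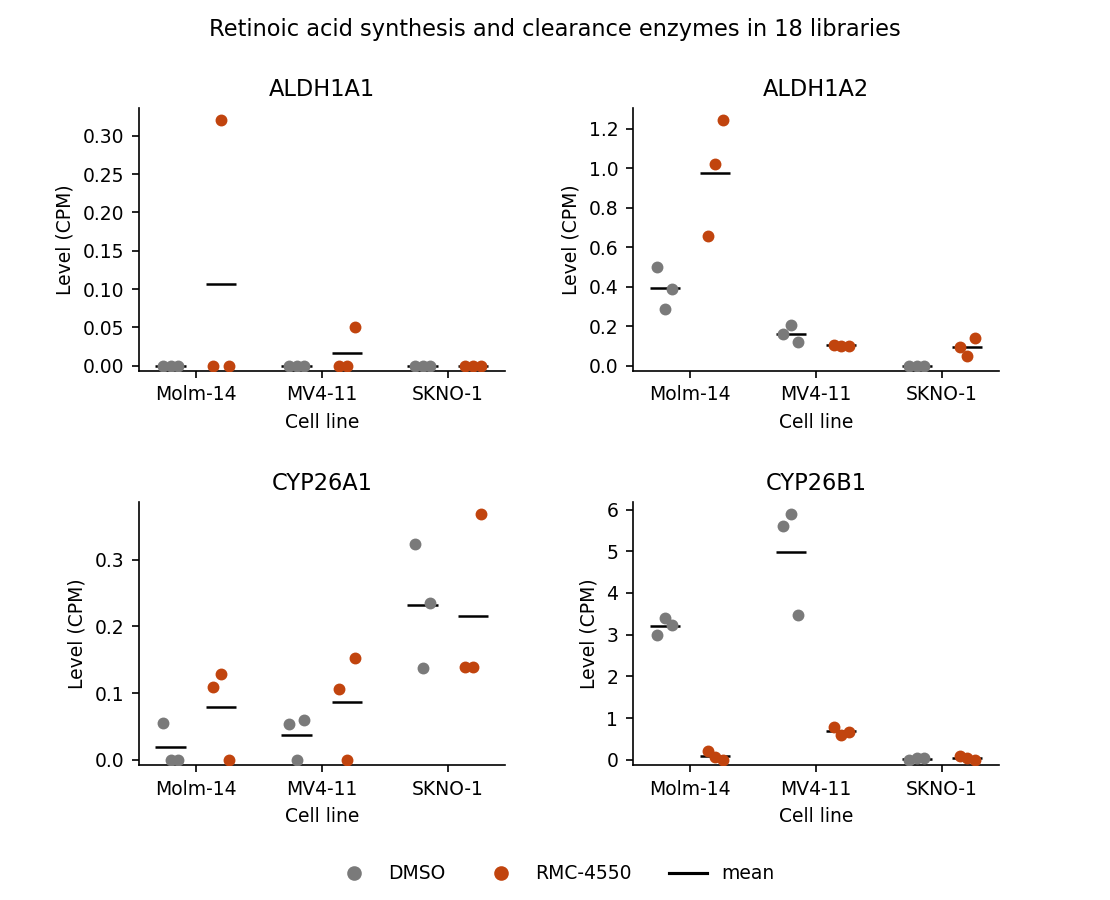
Levels in CPM of ALDH1A1, ALDH1A2, CYP26A1 and CYP26B1 in each library, by line, with DMSO in grey, RMC-4550 in orange and a bar at each mean of 3, on a separate linear axis per gene. CYP26B1 is at 3.00 to 5.88 CPM in the vehicle libraries of Molm-14 and MV4-11 and below 1 CPM in all others, and the other genes reach at most 1.24 CPM.

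RARA (ENSG00000131759) encodes the retinoic acid receptor of myeloid maturation. Its level in Molm-14 was 55.2, 57.3 and 60.0 CPM with DMSO and 134, 158 and 140.0 CPM with RMC-4550. The treated mean was 2.50-fold higher without overlap, and the log2 change was 1.32 with an SE of 0.11 (adjusted p = 1.5e-07). In MV4-11 RARA was 158, 126 and 158 CPM against 200.0, 159 and 191 CPM, a log2 change of 0.32 (95% interval 0.09 to 0.54, adjusted p = 0.061). SKNO-1 held 171, 180.1 and 177 CPM against 197, 233 and 209 CPM, a log2 change of 0.27 (95% interval 0.04 to 0.50, adjusted p = 0.073). All treated libraries lay above all vehicle libraries in each line, as they did in either direction for 59.9%, 24.6% and 62.0% of all genes tested, with the lines in that order.

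The RARA response of Molm-14 exceeded that of MV4-11 by 1.00 on the log2 scale (adjusted p = 0.00049), where 19.4% of all genes were called, and the SKNO-1 response lay below it by 1.05 (log2 difference -1.05, adjusted p = 0.00035). The MV4-11 and SKNO-1 responses did not differ past the threshold (log2 difference -0.05, 95% interval -0.37 to 0.27). Molm-14 started from the lowest vehicle level, 57.5 ± 2.42 CPM against 147 ± 18.5 in MV4-11 and 176 ± 4.67 in SKNO-1 (SD, n = 3). Those vehicle differences were called for Molm-14 against MV4-11 (log2 difference -1.35, adjusted p = 3e-08) and for SKNO-1 against Molm-14 (1.61, adjusted p = 1.2e-09). With RMC-4550 the Molm-14 mean was 144 ± 12.3 CPM, within the range of the MV4-11 vehicle libraries. The smaller changes in the other lines passed the threshold under some settings, among them the replicate number as a block (adjusted p = 0.019 in MV4-11 and 0.021 in SKNO-1) and MV4-11 without RMC-4550 replicate 2 (0.026). RARA-AS1 overlaps RARA on the opposite strand by 556 exon bases.

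RARG, the third receptor subtype, rose with RARA in Molm-14. Its level there was 13.8, 11.6 and 13.9 CPM with DMSO and 23.9, 24.0 and 22.96 CPM with RMC-4550. RARG rose by 0.85 on the log2 scale there (SE 0.10, adjusted p = 4.7e-06). In MV4-11 it was 15.3, 15.1 and 15.2 CPM against 17.7, 19.3 and 20.2 CPM, a log2 change of 0.33 (adjusted p = 0.036). SKNO-1 libraries overlapped, at 17.7, 18.9 and 19.8 CPM against 19.2, 23.4 and 21.8 CPM (log2 change 0.19, 95% interval -0.02 to 0.40, adjusted p = 0.17). The Molm-14 response was the larger against MV4-11 by 0.53 (adjusted p = 0.017), a call lost without the 4 libraries over 10% (0.45, adjusted p = 0.074) and with no filter on low values (0.055). The SKNO-1 response lay below that of Molm-14 by 0.67 (log2 difference -0.67, adjusted p = 0.0053). The MV4-11 call was lost with the replicate number as a block (adjusted p = 0.055), in a fit of that line alone (0.19), and without DMSO replicate 1, DMSO replicate 3, RMC-4550 replicate 2 or RMC-4550 replicate 3 (0.081 to 0.15).

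RXRA encodes the partner that RARA, VDR and other nuclear receptors share. In Molm-14 its levels were 233, 237 and 261 CPM with DMSO and 458, 228 and 385 CPM with RMC-4550. Replicate 2 of the treated group, which had the mitochondrial share of 15.0%, lay below every vehicle library while the other treated libraries lay above them. In MV4-11 RXRA was 144, 232 and 142 CPM with DMSO and 165, 250.1 and 254 CPM with RMC-4550, and the 3 lowest values were those of the 3 libraries over 10%. In SKNO-1, where no library was over 10%, RXRA was 150.1, 154 and 156 CPM against 127, 149 and 135 CPM. The log2 changes, lines in the same order, were 0.49, 0.38 and -0.17, and none passed the test (adjusted p of 0.088, 0.32 and 0.65). Adding the mitochondrial share to the model gave 0.80 in Molm-14 (adjusted p = 4.2e-09), and the change was 0.79 without the 4 libraries over 10% (2e-07). It was also called without RMC-4550 replicate 2 alone, at an adjusted p of 0.0046. In SKNO-1 it was called in a fit of that line alone, at an adjusted p of 0.029.

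**Figure D3:**
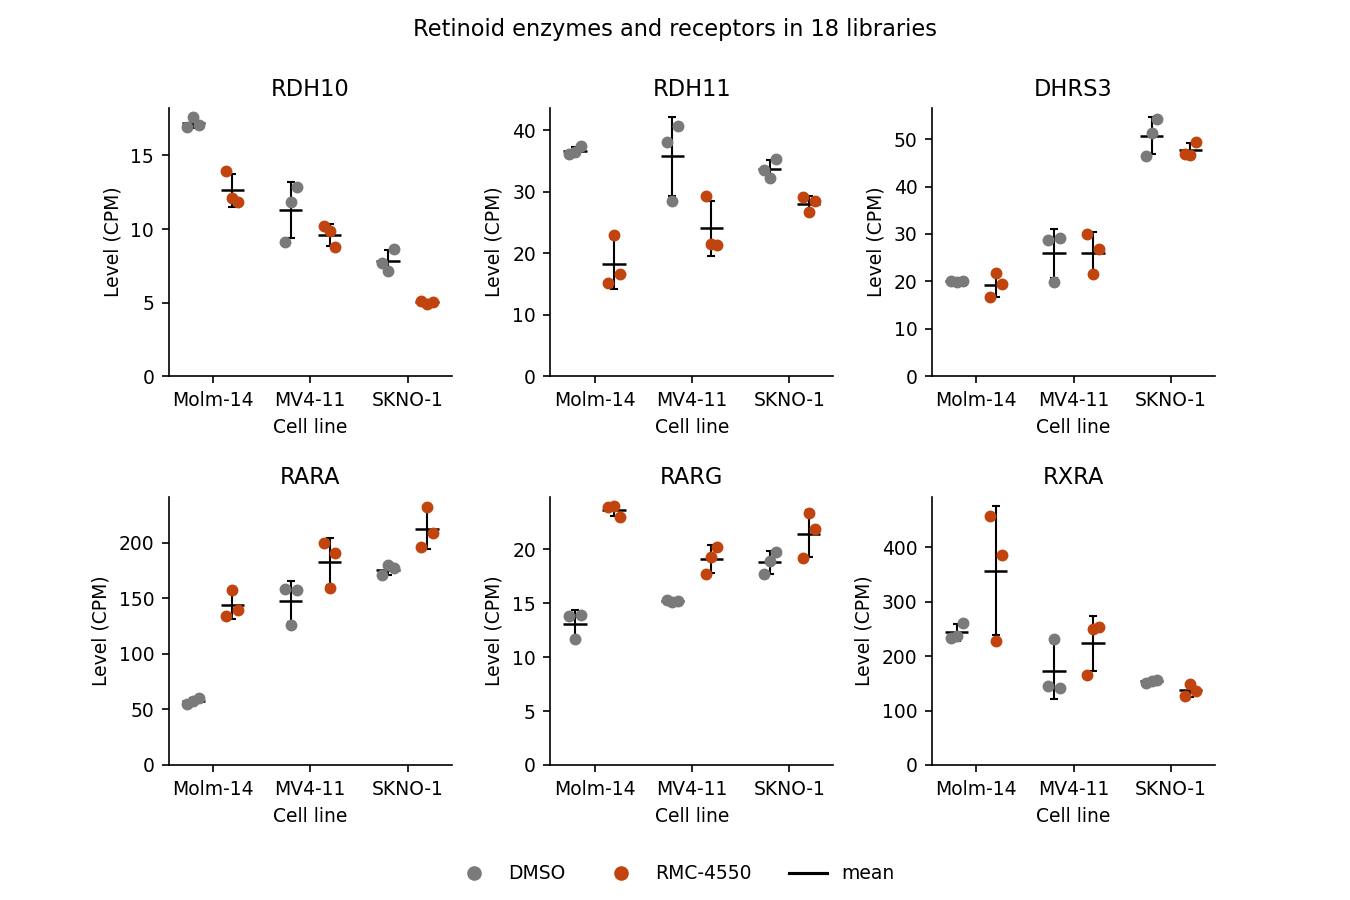
Levels in CPM of RDH10, RDH11, DHRS3, RARA, RARG and RXRA in each library, by line, with DMSO in grey, RMC-4550 in orange, and bars for the mean and SD of 3 libraries, on linear axes from 0. RARA and RARG separate most in Molm-14, RDH10 and RDH11 lie lower with treatment there, and DHRS3 overlaps in every line.

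**Figure D4:**
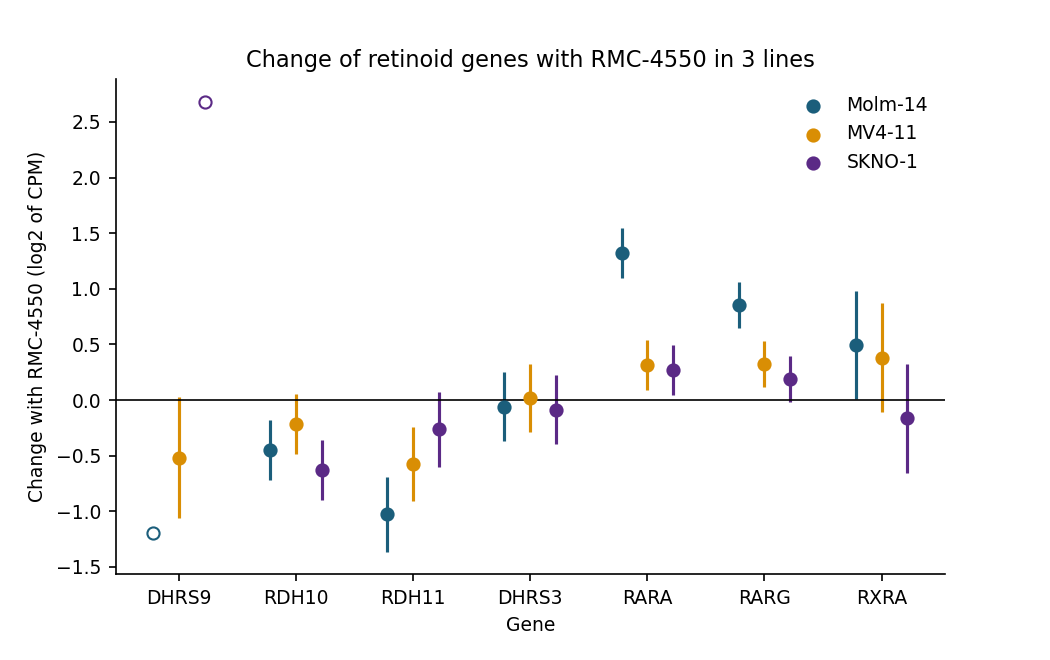
Log2 change with RMC-4550 of 7 genes in each of the 3 lines, with 95% intervals from the shared fit. Open points for DHRS9 in Molm-14 (-1.19) and SKNO-1 (2.68) have no interval because these changes chose the gene, and the other genes lie between -1.03 and 1.32.

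Set per kilobase of annotated exon (GENCODE 29, all isoforms joined), the vehicle levels ranked the genes differently in each line. In Molm-14 the highest were RXRA at 21.97, RARA at 12.2 and DHRS9 at 11.9 CPM per kb, and the lowest of the 7 was RARG at 2.56. MV4-11 led with RARA at 31.2 and RXRA at 15.6 CPM per kb, followed by DHRS3 at 8.53 and DHRS9 at 6.79. In SKNO-1 the order began with RARA at 37.2, DHRS3 at 16.7 and RXRA at 13.8 CPM per kb, and DHRS9 came last at 0.224. RDH11 lay between 6.11 and 6.64 CPM per kb in all 3 lines.

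The wider pathway was read from 5 lists of 74 genes, of which 67 had a row and 44 entered the fit. Of 26 further retinoid enzymes, 13 entered the fit and 11 were tested in each line. In Molm-14, 4 rose (RDH5, RDH13, DGAT1 and BCO2) and CYP26B1 fell, against 21.5% and 25.1% of all genes. In SKNO-1, 3 rose (RDH5, ALDH1A3 and BCO2) and PNPLA4 fell, against 10.8% and 16.2%, and in MV4-11 CYP26B1 was the 1 gene called, against 5.85% higher and 8.03% lower. At an unadjusted p under 0.05 no further gene of the list passed in MV4-11. RDH5, ALDH1A3, BCO2 and CYP26B1 had means under 5 CPM and are named because of these calls. CYP26B1 passed the minimum level in Molm-14 and MV4-11 through the vehicle group, where it was high, and so did PNPLA4 in SKNO-1. ALDH1A3 in SKNO-1 and RDH5 in Molm-14 passed it through the treated group, where they were high. The calls of these genes are included in the counts and are not read as evidence. The median log2 change over the list was 0.41 for Molm-14, -0.02 for MV4-11 and 0.16 for SKNO-1.

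ALDH1A3, the third retinal oxidising enzyme of its family, was 1.57, 0.643 and 0.895 CPM with DMSO and 3.33, 2.46 and 3.08 CPM with RMC-4550 in SKNO-1. Its log2 change was 1.58 (adjusted p = 0.0021), but it passed the minimum level there through the treated group. In the other lines it stayed near or under 1 CPM and was not tested. RDH13, a mitochondrial relative of RDH11, rose in Molm-14, with means of 17.03 ± 0.474 and 22.9 ± 1.58 CPM (SD, n = 3), a log2 change of 0.43 and an adjusted p of 0.0013. DGAT1, which can esterify retinol, rose there from 74.2 ± 4.89 to 100.3 ± 16.1 CPM (0.43 on the log2 scale, adjusted p = 0.022), a call lost without DMSO replicate 1 or RMC-4550 replicate 2. PNPLA4, a retinyl ester hydrolase, fell in SKNO-1 from 1.42 ± 0.327 to 0.679 ± 0.317 CPM (log2 change -1.14, adjusted p = 0.0078). It passed the minimum level there through the vehicle group, since all treated libraries were under 1 CPM, and RDH5 passed in Molm-14 through the treated group. Exons of RDH5 lie inside the readthrough gene BLOC1S1-RDH5 for 2035 bases, so its reads cannot be assigned with certainty, nor can those of the near copies DHRS4 and DHRS4L2, which were not called in any line.

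Among 11 retinoid binding and uptake genes, 2 entered the fit. FABP5, a fatty acid binding protein that can carry retinoic acid to PPARD, fell in all 3 lines. In Molm-14 its mean went down from 23.004 ± 0.255 CPM to 11.2 ± 4.56 CPM, by a log2 change of -1.12 (adjusted p = 0.00074). The SKNO-1 means were 18.2 ± 1.36 and 7.52 ± 0.685 CPM (-1.27, adjusted p = 0.00047). The MV4-11 change was -0.75 (adjusted p = 0.034), and that call was lost without DMSO replicate 1, DMSO replicate 3, RMC-4550 replicate 2 or RMC-4550 replicate 3 (0.084 to 0.17). STRA6, the retinol uptake receptor, and CRABP1 had 3 reads or fewer in every library.

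Of 14 retinoic acid responsive genes of myeloid cells, 11 entered the fit, and the genes tested differed between lines. In Molm-14, 7 were tested: ITGAX rose, and CD38, CYP26B1 and HIC1 were among those that fell, with a median log2 change of -0.50, where 46.6% of all genes were called and their median was -0.06. In MV4-11, 11 were tested: TGM2, CD38, PRAM1 and ITGAM rose and CYP26B1 fell, with a median of 0.42, against 13.9% of all genes and a median of -0.01. In SKNO-1, 10 were tested and PRAM1 and ITGAM rose, with a median of 0.42, against 27.0% and -0.05. HIC1 had not been picked for naming and appears here because of its call. CYP26B1, as above, passed the minimum level in Molm-14 and MV4-11 through the vehicle group.

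CD38, a surface enzyme known as an early target of retinoic acid in myeloid cells, fell in Molm-14, where the vehicle mean was 7.18 ± 0.556 CPM and the treated mean 2.89 ± 1.06 CPM (SD, n = 3). Its log2 change was -1.38, at an adjusted p of 1e-04. In MV4-11 it rose from 18.2 ± 4.13 to 30.0 ± 2.55 CPM (0.74, adjusted p = 0.033), a call lost without DMSO replicate 1, DMSO replicate 3, RMC-4550 replicate 2 or RMC-4550 replicate 3 (0.093 to 0.15). SKNO-1 held 77.1 ± 3.97 and 98.2 ± 2.11 CPM (0.35, adjusted p = 0.26). The responses of Molm-14 and MV4-11 differed by -2.12 (adjusted p = 0.00037) and those of SKNO-1 and Molm-14 by 1.73 (adjusted p = 0.0018). CD38 thus shared with DHRS9 a lower level in treated Molm-14 and a higher one in treated SKNO-1 libraries, without a call in SKNO-1 in the shared fit. The SKNO-1 change of CD38 was called in a fit of that line alone (adjusted p = 6.8e-05) and with the mitochondrial share in the model (0.0011). In MV4-11 the genes went apart, with treated CD38 higher and treated DHRS9 lower. Their vehicle levels ordered the lines in opposite ways, and r between them over the 18 samples was -0.70.

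ITGAM (CD11b), an integrin of mature myeloid cells, rose in SKNO-1 from 28.6 ± 1.77 to 49.2 ± 0.747 CPM (log2 change 0.78, adjusted p = 9.9e-07) and in MV4-11 from 46.2 ± 1.56 to 63.7 ± 2.51 CPM (0.46, adjusted p = 0.00045). In Molm-14 it was 40.6 ± 2.08 and 38.9 ± 1.85 CPM (-0.06, 95% interval -0.21 to 0.10, adjusted p = 0.53). Its SKNO-1 and Molm-14 responses differed by 0.84 (adjusted p = 8.4e-05). PRAM1, an adaptor induced during granulocytic maturation, rose in SKNO-1 from 41.8 ± 0.661 to 90.6 ± 6.87 CPM (1.11, adjusted p = 9.4e-05) and in MV4-11 by 0.63 (adjusted p = 0.017), the latter lost without RMC-4550 replicate 1 or RMC-4550 replicate 3. TGM2, a transglutaminase and target of retinoic acid, was 35.2 ± 1.81 and 74.1 ± 2.53 CPM in SKNO-1. The groups did not overlap, as for 62.0% of all genes tested there. Its adjusted p was 0.094 in the fit shared by the 3 lines. That p was 0.00019 with voom weights and 1.9e-10 in a fit of SKNO-1 alone. In MV4-11 TGM2 rose from 3.80 ± 1.19 to 10.6 ± 3.90 CPM (1.43, adjusted p = 0.047), which was lost under the replicate block (0.078) and without DMSO replicate 1, DMSO replicate 3, RMC-4550 replicate 2 or RMC-4550 replicate 3. ITGAX (CD11c) rose in Molm-14 from 53.7 ± 4.09 to 113 ± 38.3 CPM (1.03, adjusted p = 0.00091). Molm-14 had 1 read of TGM2 or fewer in each library.

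**Figure D5:**
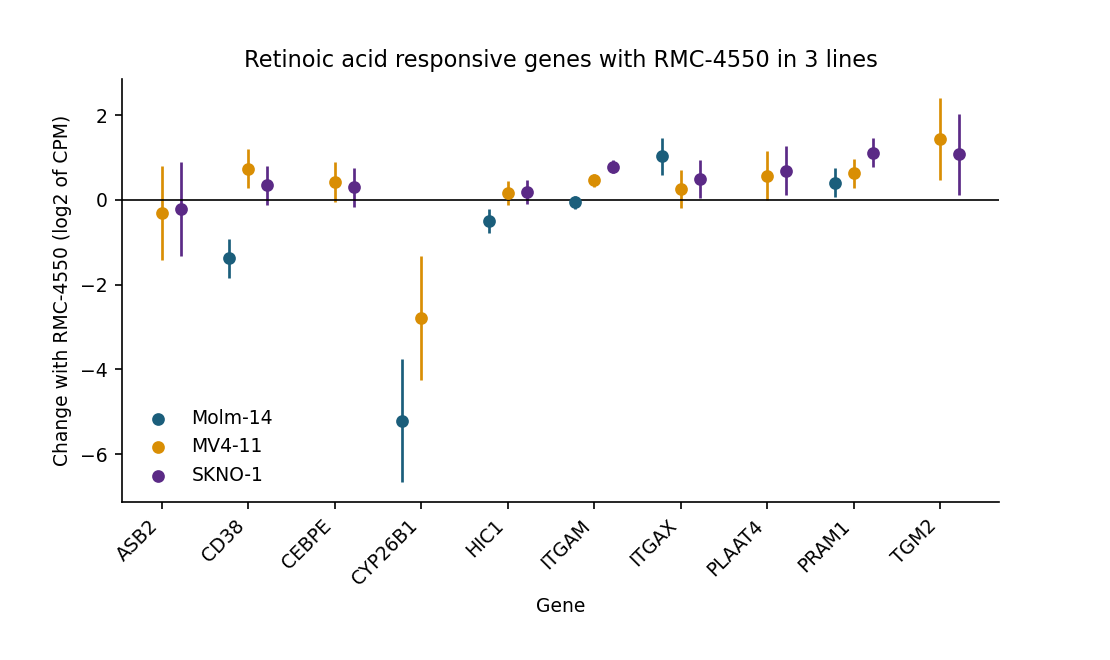
Log2 change with RMC-4550 of 10 retinoic acid responsive genes tested in at least 1 line, with 95% intervals from the shared fit, for Molm-14, MV4-11 and SKNO-1. CYP26B1 has the lowest values (-5.21 and -2.79), CD38 lies at -1.38 in Molm-14 and above 0 in the other lines, and ASB2, CEBPE, PLAAT4 and TGM2 have no Molm-14 point because they were not tested there.

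Receptors and their coregulators were a further list. Of 10 receptor and coregulator genes tested in Molm-14, NCOA1 rose and NRIP1 fell, in MV4-11 PML alone rose out of 10, and in SKNO-1 0 of 11 were called by limma, with 1 at an unadjusted p under 0.05. The shares of all genes called were 46.6%, 13.9% and 27.0%. NCOA1, a coactivator, rose in Molm-14 from 26.8 ± 2.82 to 38.4 ± 3.00 CPM (0.52, adjusted p = 0.0019). NRIP1, a corepressor induced by retinoic acid, fell there from 76.5 ± 1.37 to 36.6 ± 16.6 CPM (-1.19, adjusted p = 0.0076). PML, the fusion partner of RARA in promyelocytic leukaemia, rose in MV4-11 from 114.6 ± 8.58 to 193 ± 16.4 CPM (0.75, adjusted p = 1.9e-05), and its Molm-14 log2 change was -0.02 (adjusted p = 0.88). NCOR1, a corepressor of unliganded RARA, was not called in any line. RARB, the receptor that retinoic acid is known to induce, stayed under 1 CPM in all libraries.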

How the data were processed

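RNA from 3 lines was sequenced on DNA nanoballs after oligo(dT) selection, per the labels' protocols. The submitters' processing notes name FastQC, STAR, limma and GRCh38, and versions are not given in the sources used here. The authors deposited log2 values per gene and sample. From the low values these were read as log2 counts per scaled library (log2 CPM, with 0.5 reads added), since all values of up to 20 reads came out whole within 0.05 reads, and CPM and reads were computed from them. Library scaling factors ran from 0.890 to 1.11. Replicates differed beyond counting noise, with a chi-square per degree of freedom of 1.67 or more for every pair.

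One limma model (limma 3.58.1, R 4.3.3) with a coefficient per group was fitted to the deposited log2 values of the 18 samples for the 16289 genes with at least 1 CPM in 3 or more samples. Each gene had 1 variance shared by all groups, moderated with a trend. A line's response was tested for genes at 1 CPM in 3 of its 6 samples, a difference of responses for genes that met this in both lines, and a difference of vehicle levels for genes that met it over both lines' samples. Two-sided p-values were adjusted by Benjamini-Hochberg over all genes of the comparison, and calls were made at 0.05. The script was tested on simulated data. Symbols were found for 40069 of 40184 IDs, and exon lengths and overlaps came from GENCODE 29. Promoters came from RefSeq (GRCh38.p14).

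The 10 genes and the lists were chosen with earlier results of these data known. Other genes named were those of each list called in any line with a mean of at least 5 CPM, up to 5 per list, and the 5 most like DHRS9. Alternatives covered the scale, the filter, the scaling, the fit, the replicate block, the mitochondrial share and left-out libraries. Voom weights were added after seeing the data. Some genes of the lists are counted but not reported here by name.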

Additional observations from a re-analysis of the deposited data

Results flagged for a closer look

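The results here are those in which 2 lines responded differently to RMC-4550. For DHRS9, every treated SKNO-1 library lay above and every treated Molm-14 library below the vehicle libraries, a difference of 3.88 on the log2 scale that was not tested because it chose the gene.

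The other differences passed limma's test of the difference itself, adjusted over all genes. Between SKNO-1 and Molm-14, the difference of responses was 0.77 for RDH11 (adjusted p = 0.037), -1.05 for RARA (0.00035), -0.67 for RARG (0.0053), -1.42 for PNPLA4 (0.036), 1.73 for CD38 (0.0018) and 0.84 for ITGAM (8.4e-05). Between Molm-14 and MV4-11 it was 1.00 for RARA (0.00049), 0.53 for RARG (0.017), 0.60 for DGAT1 (0.048), -0.77 for PML (0.00063), 0.92 for NR1H3 (0.0033), -2.12 for CD38 (0.00037) and -0.52 for ITGAM (0.0036). Between SKNO-1 and MV4-11 it was -0.58 for PML (0.017). HIC1, which was not picked for naming, also differed, by 0.69 between SKNO-1 and Molm-14 (0.03) and -0.66 between Molm-14 and MV4-11 (0.026). Its Molm-14 means were low, at 2.0 CPM with DMSO and 1.4 CPM with RMC-4550. The PNPLA4 call was lost without Molm-14 DMSO replicate 1, 2 or 3, Molm-14 RMC-4550 replicate 3, or SKNO-1 DMSO replicate 2 or 3 (0.059 to 0.097), and PNPLA4 passed the minimum level in SKNO-1 through the vehicle group. The PML call between SKNO-1 and MV4-11 was lost without MV4-11 DMSO replicate 3, MV4-11 RMC-4550 replicate 3, SKNO-1 DMSO replicate 2 or SKNO-1 RMC-4550 replicate 1 (0.053 to 0.059), under the replicate block (0.055) and with no filter on low values (0.064). The RARG call between Molm-14 and MV4-11 was lost without the 4 libraries over 10% mitochondrial reads (0.074) and with no filter (0.055). The DGAT1 call was lost in 8 of 12 fits without 1 library (0.071 to 0.13), and the RDH11 call in 11 of 12 (0.053 to 0.089).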

How the results depend on the processing

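Counts over all genes moved with a fit per line and with how the 4 libraries of high mitochondrial share were treated. Genes called in MV4-11 (862 higher, 1183 lower) became 328 and 346 in a fit of that line alone, 1788 and 3266 when the mitochondrial share entered as covariate, and 1299 and 2661 without the 4 libraries. Genes called in SKNO-1 (1588 higher, 2381 lower) became 3577 and 4878, 2937 and 4335, and 3107 and 4710 under the same settings. Leaving out 1 library gave 487 to 1420 higher and 727 to 1604 lower in MV4-11, with fewest without RMC-4550 replicate 3.

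Of the retinoid genes, 2 were called in MV4-11, against 1 with no filter on low values, 0 in the separate fit, 4 with the covariate and 0 to 2 without 1 library. In SKNO-1, 1 was called, against 2 with no filter, median-ratio scaling or the replicate block, 3 with the covariate, and 4 in the separate fit or without the 4 libraries. For the Molm-14 against MV4-11 response, 2 were called, against 1 with no filter and 5 with the covariate. For the vehicle levels, 3 differed between SKNO-1 and MV4-11, against 6 with the covariate and 5 without the 4 libraries, and 2 to 4 between Molm-14 and MV4-11 without 1 library.

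Some values that were not called changed sign. DGAT1 in SKNO-1 was -0.0091 with the covariate and -0.0577 to 0.0957 without 1 library. PML in Molm-14 was 0.0298 with median-ratio scaling, 0.0506 with the covariate, 0.0380 without the 4 libraries and -0.0607 to 0.0380 without 1. Without 1 library DHRS3 ran from -0.15 to 0.0380 in Molm-14 and -0.16 to 0.15 in MV4-11, and NRIP1 from -0.48 to 0.0605 in MV4-11. NRIP1 there was called with the covariate (-0.70, 7.1e-06) and without the 4 libraries (-0.54, 0.0045), and DHRS3 in Molm-14 with the covariate (-0.22, 0.042). The cause was not tested.

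The labels do not say whether replicate numbers pair the samples. Same-numbered samples correlated between -0.628 and 0.838, and not each best with its own number, which does not settle the question. The shared fit used no pairing. The replicate block within each line could not be fitted for vehicle levels, since a block there lies within 1 line, and for the responses it gave the 2 called genes above in SKNO-1. Median-ratio scaling moved the median gene by 0.041 to 0.064. Planned count models (edgeR, DESeq2) were not run, since the values were deposited as logarithms, although reads could be recovered from them. Depth limits ALDH1A1, ALDH1A2 and CYP26A1, which were too low to test.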

Other observations

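RXR also pairs with receptors for other ligands. Of 13 listed partners, 8 entered the fit, and in Molm-14 VDR and NR1H3 rose and NR4A1 fell, 3 of 8 where 46.6% of all genes were called. VDR, the vitamin D receptor, rose from 37.9 ± 1.92 to 48.2 ± 1.42 CPM (SD, n = 3), with a log2 change of 0.35 and an adjusted p of 0.0025 by limma. NR1H3, an oxysterol receptor, rose from 5.35 ± 0.453 to 7.90 ± 0.858 CPM (0.56, adjusted p = 0.0021), whereas in MV4-11 it was 10.2 ± 1.32 and 7.92 ± 0.873 CPM (-0.36, adjusted p = 0.074). NR4A1, an immediate early nuclear receptor, fell from 13.9 ± 0.889 to 6.01 ± 1.39 CPM (-1.23, adjusted p = 1e-04). Its treated libraries also lay below the vehicle libraries in MV4-11 (-0.43, adjusted p = 0.17) and SKNO-1 (-0.48, adjusted p = 0.08), without passing the test. Libraries lay apart, in either direction, for 24.6% and 62.0% of all genes tested in those lines. In MV4-11 and in SKNO-1 limma called 0 of the 8, with 2 lower at an unadjusted p under 0.05 in each, where 13.9% and 27.0% of all genes were called.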
